A study of Mus musculus with 17 samples.

Results

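The Ifi200 and Aim2 gene cluster is a stretch of mouse chromosome 1 that holds a family of interferon-inducible genes. The 9 members described here, Ifi203, Ifi204, Ifi205, Ifi207, Ifi209, Ifi211, Ifi213, Mndal and Aim2, were chosen by name and position, and their sites were chosen by the peaks that the lists carried within 20 kb of the gene bodies. Of 34158 sites seen in at least 2 of 17 lists of open chromatin, 23 lay in the cluster. A further 10 sites of the cluster were seen in 1 list only, which made 33 of 41158 sites in any list, and these were not tested.

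Open chromatin was mapped in bone marrow-derived macrophages (BMDMs) by ATAC-seq, an assay whose Tn5 transposase inserts adapters into accessible DNA. The cells came from male C57Bl6/J mice of 6 to 12 weeks and were cultured for 7 days in L929-conditioned medium. WT BMDMs came from littermates with an intact Nr4a1 gene, which encodes the nuclear receptor Nur77. Nur77-KO BMDMs, whose genotype the labels give as "cre", came from mice in which a CMV promoter-driven Cre had deleted loxP-flanked Nr4a1 in the whole body, after which Cre was bred out. Both genotypes were left untreated (0 h) or given 100 ng/ml lipopolysaccharide (LPS), a bacterial activator of macrophages, for 1 h or 18 h. There were 3 lists per group, apart from WT at 1 h, which had 2, and 1 of those 2 is labelled replicate 1-2. The labels do not say whether replicates came from separate mice, so p-values measure only the spread between these samples, which may be technical.

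The proteins of this family carry a HIN domain, which binds DNA, and most also carry a pyrin domain, through which they join other proteins. Aim2 detects double-stranded DNA in the cytosol and assembles an inflammasome with Pycard and caspase-1. Interferon released by activated macrophages induces many genes of the family through transcription factors that bind the interferon-stimulated response element (ISRE) in their promoters.

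Each list ranks its peaks by p-value, so that rank 1 has the smallest, and the best 24389 peaks of every list were compared, which is the length of the shortest list. Peaks of equal p-value were ordered at random. Such ties were wide in some lists, and at the last compared rank 1 tie held 13.9% of KO 1 h replicate 2. The rank score of a site in a list is log2(24389/rank), and it is 0 where the list has no peak at the site among these 24389. Unless whole lists are named, a peak means one within this length, and many lists go on past it. A score of 0 is thus set by the list length. Where one side of a comparison had a peak in at most 1 list, the site entered the comparison through the other side and had to differ, so its difference is given as a description with no error or p-value, and counts of called sites that hold such sites are descriptions too. A difference of 1 in the rank score is a 2-fold difference in rank. The lists differed in depth, from 0.382 to 9.75 reads per kb of background, and the shallowest list was replicate 1-2 of WT at 1 h. In KO 18 h replicate 1 the median peak width was 135 bp, whereas it was 338 to 661 bp in the other 16 lists. All 8 macrophage markers had a promoter peak in 12 to 17 lists, while the 4 T cell, 2 NK cell and 3 neutrophil markers had none. Of the B cell markers, Ms4a1 had a promoter peak in 10 lists, all with LPS, and the other B cell markers in 0; of the remaining markers Col1a1 had one in 14 lists, Pdgfra in 1 and Epcam in 0. The promoter of Nr4a1 carried a peak in 6 of the 8 lists from WT and 6 of the 9 from KO, which does not check the deletion because an open promoter can remain after it.

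Windows of 201 bases around the summit are given for the promoters and distal sites on which the results turn (GRCm38, the build mm10). Capitals mark matches to an ISRE (GAAANNGAAA), to AP-1 (TGANTCA) or to PU.1 (GAGGAAGT) on either strand. The promoters of Ifi204, Ifi211, Ifi205, Ifi207 and Ifi203 are read along the minus strand, that of the gene, and the others along the plus strand.
Ifi204 promoter, chr1:173766965-173767165: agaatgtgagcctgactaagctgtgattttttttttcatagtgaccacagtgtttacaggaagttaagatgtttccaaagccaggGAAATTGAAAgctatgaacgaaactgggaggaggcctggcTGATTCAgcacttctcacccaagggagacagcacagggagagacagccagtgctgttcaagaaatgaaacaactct
Ifi211 promoter, chr1:173912911-173913111: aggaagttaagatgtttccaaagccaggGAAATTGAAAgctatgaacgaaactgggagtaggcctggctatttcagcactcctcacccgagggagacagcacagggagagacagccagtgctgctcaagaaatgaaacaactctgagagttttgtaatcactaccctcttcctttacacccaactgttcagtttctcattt
Ifi205 promoter, chr1:174031763-174031963: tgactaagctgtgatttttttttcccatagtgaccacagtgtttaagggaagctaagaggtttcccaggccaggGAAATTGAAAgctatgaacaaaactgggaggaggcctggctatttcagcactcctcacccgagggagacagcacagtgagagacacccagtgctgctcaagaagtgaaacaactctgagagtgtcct
Ifi207 promoter, chr1:173741762-173741962: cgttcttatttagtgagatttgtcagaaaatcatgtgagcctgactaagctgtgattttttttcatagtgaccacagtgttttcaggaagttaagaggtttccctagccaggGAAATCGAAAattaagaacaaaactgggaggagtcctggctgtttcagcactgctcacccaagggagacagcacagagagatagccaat
Ifi203 promoter, chr1:173942461-173942661: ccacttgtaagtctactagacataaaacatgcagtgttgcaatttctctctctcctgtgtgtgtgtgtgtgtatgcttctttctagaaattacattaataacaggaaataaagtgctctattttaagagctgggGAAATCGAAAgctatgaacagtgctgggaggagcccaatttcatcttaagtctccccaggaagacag
Aim2 promoter, chr1:173420422-173420622: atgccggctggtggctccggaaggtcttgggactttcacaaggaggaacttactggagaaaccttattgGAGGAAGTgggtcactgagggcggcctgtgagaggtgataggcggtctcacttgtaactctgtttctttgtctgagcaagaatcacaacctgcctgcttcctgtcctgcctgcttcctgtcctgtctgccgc
site 12607 bp upstream of Ifi203, chr1:173955179-173955379: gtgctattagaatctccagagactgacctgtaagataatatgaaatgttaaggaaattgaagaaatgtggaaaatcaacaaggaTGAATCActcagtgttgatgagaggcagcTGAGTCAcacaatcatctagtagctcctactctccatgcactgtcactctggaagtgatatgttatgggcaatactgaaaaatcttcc
site 19008 bp upstream of Ifi203, chr1:173961580-173961780: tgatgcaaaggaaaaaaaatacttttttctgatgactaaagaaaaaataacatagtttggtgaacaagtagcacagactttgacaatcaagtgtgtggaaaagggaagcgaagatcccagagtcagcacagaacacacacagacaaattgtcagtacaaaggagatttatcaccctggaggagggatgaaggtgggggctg

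Promoters of the cluster shared long runs of sequence. The windows of Ifi204 and Ifi211 had an identical run of 58 bases, those of Ifi211 and Ifi205 a run of 45 bases, and those of Ifi207 and Ifi204 a run of 31 bases. The same 19 bases, GAAATTGAAAgctatgaac, which begin with the ISRE, stood in 3 promoters, those of Ifi204, Ifi211 and Ifi205. Of the 9 members, 8 had a promoter in the RefSeq table for GRCm38, which spans each start, and Ifi204 was not matched. Over the 28 pairs of these promoters the identity had a median of 47.7% and ranged from 44.3% to 85.9%, the highest being that of Ifi207 and Ifi211. The copies also bear on how reads can be placed. Of the 32-base stretches of the Ifi204 promoter site, 43.9% occurred again in the cluster, as did 47.5% at the Ifi211 promoter, 45.7% at the Mndal promoter, 55.9% at the Ifi203 promoter, 42.4% at the Ifi209 promoter and 43.7% at the Ifi213 promoter. At the promoters of Ifi205 and Ifi207 this share was 3.92% and 2.79%, and at that of Aim2 it was 0%. The authors set a minimum mapping quality of 20, so stretches that occur again may give fewer counted reads. The part of such copies in the results was not tested.

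An ISRE lay within 100 bp of the summit at 8 of the 23 sites (34.8%), whereas it did so at 3.66% of all 34158 sites. The 8 sites were the promoters of Ifi204, Ifi207, Ifi211, Ifi203 and Ifi205, a pair of sites in introns of Aim2 and a site 8659 bp upstream of Ifi209. An ISRE stood in the RefSeq promoters of 5 members, Ifi205, Ifi207, Ifi211, Ifi213 and Mndal, and in 3.44% of all 32851 promoters of the table. AP-1 motifs stood at 5 of the 23 sites (21.7%, against 19.8% of all sites) and C/EBP motifs (TTGCNNAA) at 4 (17.4%, against 11.2%). GAS (TTCNNNGAA) and PU.1 motifs stood at 2 sites each, against 5.60% and 7.73% of all sites. No match to NF-kB, CTCF or NBRE (AAAGGTCA), to which Nur77 binds as a monomer, was found in these windows, and the shares over all sites were 4.83%, 2.79% and 1.04%. A match describes the letters of the window and does not show that a factor was bound.

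Of the 23 sites, 9 had their summit within 1 kb of a member's transcription start, 15 lay inside a gene and 8 were intergenic. Every member had such a promoter site, and Mndal had a pair of them, 1 of which it shares with Ifi203. In all, 5 sites carried a peak in all 17 lists: the promoters of Ifi207, Ifi204 and Ifi211, the site 1512 bp upstream of a start of Aim2 and a site at the promoter of Olfr433, an olfactory receptor gene, which lay 9279 bp upstream of Ifi205. The best rank of any site was 642, at the Ifi204 promoter in KO 18 h replicate 3.

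**Figure D1:**
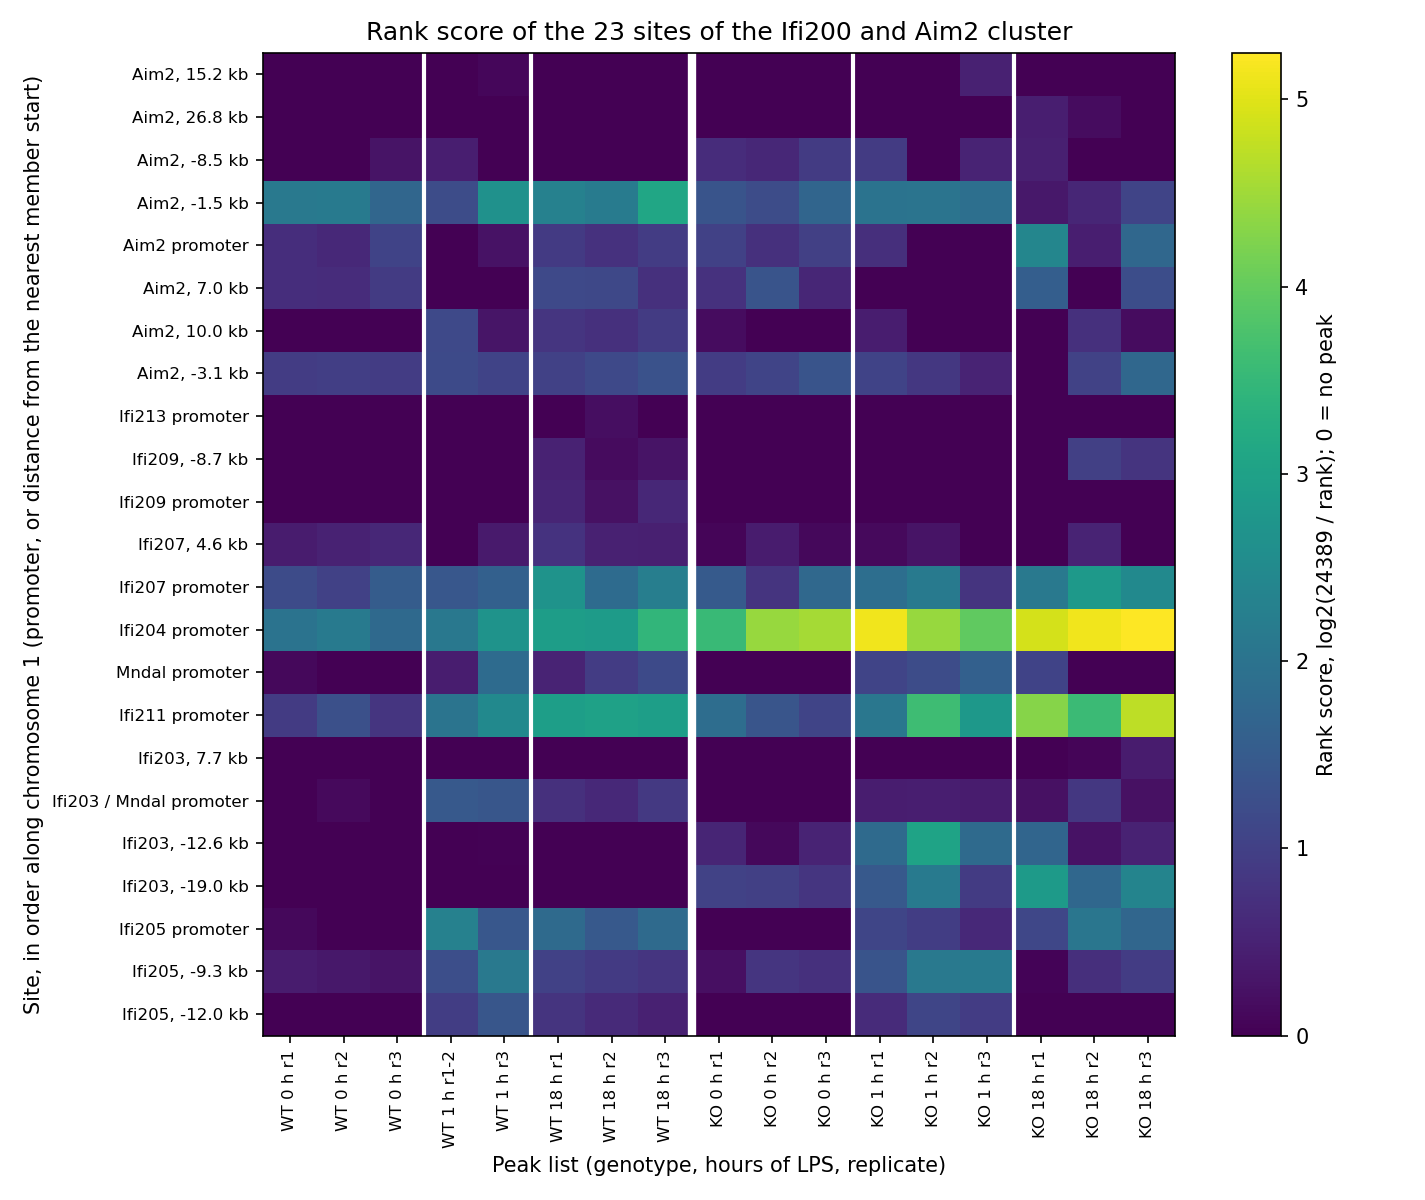
Rank score of the 23 sites (rows, in order along chromosome 1, named by promoter or by signed distance from the nearest member start, where negative is upstream) in the 17 lists (columns, by genotype, hours of LPS and replicate); the colour is log2(24389/rank) and 0 means no peak. The Ifi204 promoter is brighter in all 9 KO lists than in all 8 WT lists, and a pair of sites upstream of Ifi203 carry a peak in all KO lists and in at most 1 WT list.

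KO against WT was compared as the mean of the differences at 0 h, 1 h and 18 h. In the KO, 3 of the 23 sites (13.0%) had higher rank scores and 0 had lower ones in a limma fit over all sites, at an adjusted p-value under 0.05. Over all 34158 sites the shares called were 0.132% higher and 0.258% lower. The cluster was proposed with results of these data in view, so these counts describe it and do not test it. Of the 3 sites, only the Ifi204 promoter had a peak in more than 1 WT list. Depth moved with genotype. At 18 h it was 4.62 to 8.38 background reads per kb in WT lists and 1.10 to 1.76 in KO lists, which did not overlap. At 0 h it was 5.11 to 9.75 in WT and 0.720 to 7.65 in KO, and at 1 h 0.382 to 1.61 and 0.593 to 4.14. Over the 23 sites the median difference was 0.03 (13 positive, 10 negative), and over all sites it was -0.00211.

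The Ifi204 promoter site (chr1:173765919-173767749) surrounds the start of Ifi204, which encodes a sensor of DNA in macrophages. In WT lists its ranks were 6120, 5543 and 7071 at 0 h, 5664 and 3767 at 1 h, and 3234, 3299 and 2240 at 18 h. In KO lists they were 2069, 1132 and 1049 at 0 h, 699, 1123 and 1560 at 1 h, and 816, 697 and 642 at 18 h. The worst KO rank was thus better than the best WT rank, and genotypes did not overlap. The difference in rank score was 2.11 ± 0.23 (SE; 95% interval 1.614 to 2.602; limma adjusted p = 0.000119). It was 2.20 at 0 h, 2.11 at 1 h and 2.01 at 18 h.

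Upstream of Ifi203 lay an intergenic site at chr1:173961101-173962154, 19008 bp from the start of Ifi203 and beside Ifi202b (chr1:173962568-173982744), a family gene that is no member. No WT list had a peak there, and all 9 KO lists had one. The KO ranks were 11922, 12235 and 13993 at 0 h, 8882, 5551 and 12968 at 1 h, and 3355, 7194 and 4702 at 18 h. The ranks at 18 h were all better than those at 0 h. The mean rank score was 1.59 higher in KO, with every WT score set to 0 by the list length. With the 10000 best peaks of each list this was 0.46 and not called. WT peaks at the site existed below the compared length: in the whole lists, 5 of 8 WT lists had a peak there, at ranks from 29194 to 39797. Of its 32-base stretches, 0% occurred again in the cluster and 33.3% elsewhere in the genome.

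The other called site upstream of Ifi203 (chr1:173954648-173955825) was also intergenic, 12607 bp from the start. Among WT lists only replicate 3 at 1 h had a peak, at rank 23738. The KO ranks were 16724, 22691 and 16948 at 0 h, 6922, 2940 and 6923 at 1 h, and 7448, 20506 and 17124 at 18 h. All 9 KO lists had a peak, and at 1 h all 3 ranks were better than every rank at 0 h. The mean rank score was 1.14 higher in KO, and it was no longer called with depth as a covariate (1.06). The call at Ifi204 held with that covariate, but not where a peak had to cover at least 50% of the site (0.87).

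**Figure D2:**
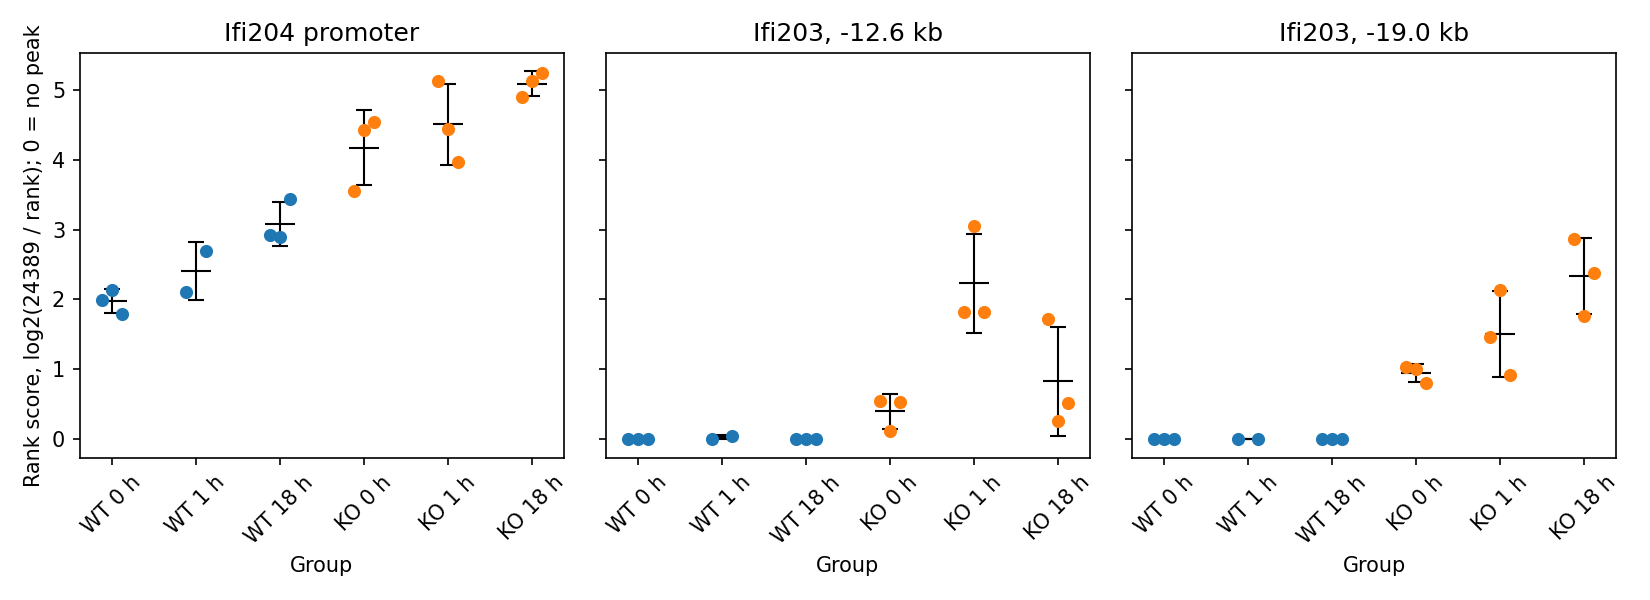
Rank score, log2(24389/rank) with 0 for no peak, of the 3 sites called between KO and WT, by group; points are lists (blue WT, orange KO), and bars are the mean and SD. At the Ifi204 promoter and at the site 19008 bp upstream of Ifi203 every KO point lies above every WT point.

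Of these sites, the one beside Ifi202b was all-or-none, with a peak in every KO list and no WT list, a pattern met at 0.0176% of all sites. No site of the cluster had a peak in every WT list and no KO list, against 0.00586% of all sites. Other promoters were not called in the mean over times. At the Ifi211 promoter the difference was 0.75 (95% interval 0.27 to 1.24; limma adjusted p = 0.244) and at the Ifi203 promoter -0.45 (-0.66 to -0.23; adjusted p = 0.0707). At the Ifi205 promoter it was -0.36 (-0.69 to -0.02), at that of Ifi207 0.14 (-0.32 to 0.60) and at the Mndal promoter inside the gene -0.13 (-0.54 to 0.27).

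Each time was also compared on its own, a choice made after the data were seen. At 0 h, 1 of the 23 sites was higher in KO and 0 were lower, against 0.0498% and 0.135% of all sites. At 1 h, 3 were higher and 1 was lower, against 0.398% and 0.667%, and at 18 h 2 were higher and 2 were lower, against 0.252% and 0.404%. The Ifi204 promoter was called at all 3 times, but with a replicate block only at 18 h (2.20 at 0 h, limma adjusted p = 0.0709). In that block replicate 1-2 formed a level of its own, so WT at 1 h rested on replicate 3 alone. The Ifi204 difference at 1 h was then 1.85. The lower sites were the Ifi203 promoter at 1 h (-1.01 ± 0.19, limma adjusted p = 0.0121), the Ifi209 promoter at 18 h (-0.46, with no KO peak) and a site near Aim2 at 18 h. With depth as a covariate the Ifi203 promoter was still called at 1 h (limma adjusted p = 0.0243), though not with the replicate block (-1.01). The Ifi209 promoter was not called with that covariate, nor was Ifi204 at 0 h (2.14, adjusted p = 0.171) or 18 h (1.94, adjusted p = 0.189).

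The Aim2 gene is annotated from chr1:173350879 to 173466040 with 4 start sites, and 8 sites lay near it, all of them in introns of the longest form. The site 1512 bp upstream of a start had ranks of 5581, 5561 and 7318 in WT at 0 h, 10462 and 3848 at 1 h, and 4955, 5363 and 2836 at 18 h. The KO ranks were 9475, 10447 and 7468 at 0 h, 6103, 6008 and 6474 at 1 h, and 19162, 16591 and 11622 at 18 h. At 0 h and 18 h the genotypes did not overlap, and at 1 h the WT ranks lay on both sides of the KO ranks. The difference was -0.80 (95% interval -1.24 to -0.36; limma adjusted p = 0.150), which did not pass. At 0 h it was -0.57 and at 1 h 0.04. At 18 h it was -1.87 (95% interval -2.61 to -1.14), which passed (limma adjusted p = 0.0152), and with depth as a covariate it was -1.78 and did not (adjusted p = 0.18). At the Aim2 promoter itself, where a PU.1 motif lies, peaks were found in 7 of 8 WT and 7 of 9 KO lists, and the difference was 0.31 (-0.14 to 0.75).

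The calls between genotypes extended beyond the cluster. Of 213 sites within 5 Mb of its middle, a distance set after the values were seen, 14 were called between KO and WT (6.57%), 11 of them among the 190 sites outside the cluster (5.79%). Among the 33945 sites farther away the share was 0.351%. The 14 summits lay between chr1:170136578 and 173961680, a span of 3.83 Mb, and none lay on the far side of the cluster. Outside the cluster, 9 of the 11 were lower in the KO. Among the genes nearest to them were Ddr2, Sh2d1b1, Fcgr3, Cfap126, Nectin4, Cd244a, Cd48, Cfap45 and Vsig8. Nr4a1 lies on another chromosome. Loss of Nur77 and other inherited differences between the KO and WT mice in this stretch cannot be told apart by this design.

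**Figure D3:**
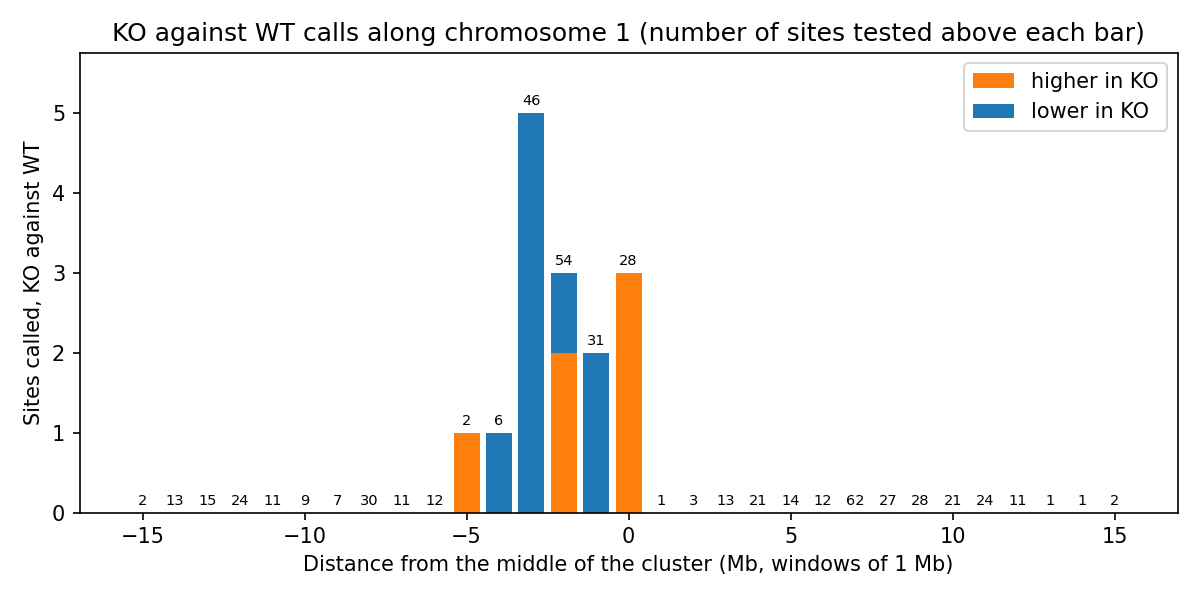
Sites called between KO and WT (limma adjusted p under 0.05) in windows of 1 Mb on chromosome 1, against the distance from the middle of the cluster; colours give the direction and the number over each bar counts the sites in that window. The window of the cluster holds 3 calls of 28 sites, all higher in KO, and calls lie on the side of lower coordinates.

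LPS was compared with 0 h as the mean over genotypes, and the comparisons at 1 h and 18 h share the 0 h lists. The number of cluster peaks among 24389 was 11, 10 and 10 in WT at 0 h, 14 and 16 at 1 h, and 18, 18 and 17 at 18 h. In KO it was 13, 12 and 12 at 0 h, 16, 14 and 15 at 1 h, and 16, 21 and 15 at 18 h. In both genotypes every LPS list held more cluster peaks than every 0 h list. The rank scores summed over the 23 sites averaged 9.74 ± 0.15 in the 3 untreated WT lists (± gives the SD), 17.9 ± 2.72 in the 2 WT lists at 1 h and 20.9 ± 1.47 in the 3 at 18 h. The KO sums averaged 14.2 ± 0.76, 22.0 ± 2.47 and 23.6 ± 1.86 at the same times, with 3 lists each. At 0 h all KO sums lay above all WT sums, and after LPS the genotypes overlapped. Much of the gap at 0 h lay at the 3 sites called between genotypes. These were higher in KO by 2.20 at the Ifi204 promoter and by 0.39 and 0.94 at the nearer and farther sites upstream of Ifi203.

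**Figure D4:**
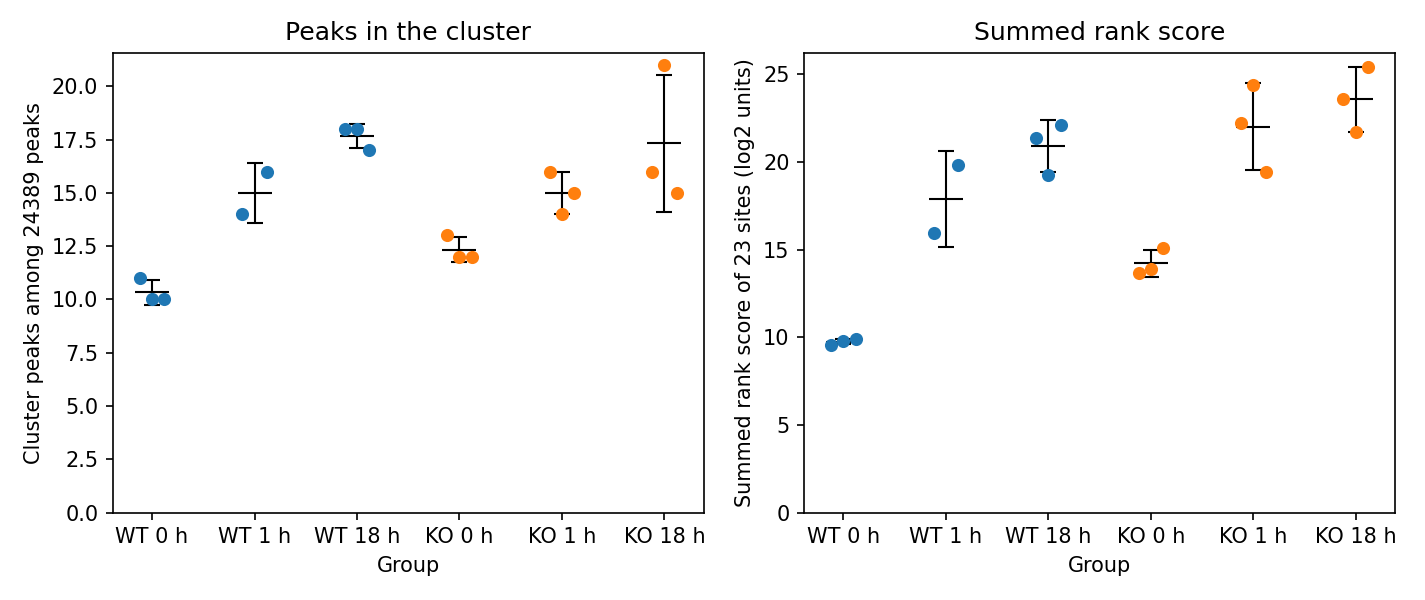
Number of cluster peaks among the best 24389 of each list (left) and summed rank score of the 23 sites (right) by group; points are lists (blue WT, orange KO), and bars are the mean and SD. WT lists move from 10 or 11 peaks at 0 h to 14 or 16 at 1 h and 17 or 18 at 18 h.

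At 1 h of LPS, 7 of the 23 sites (30.4%) were higher and 1 (4.35%) was lower than at 0 h (limma), against 13.8% and 14.2% of all sites. The median difference was 0.24 over the 23 sites and -0.02 over all sites. At 18 h, 9 sites (39.1%) were higher and 0 were lower, against 10.9% and 12.7% of all sites. The median difference was 0.28 over the 23 sites and 0 over all sites. Together, 14 of the 23 sites were called in at least 1 of the 5 comparisons, against 41.2% of all sites. One side had a peak in at most 1 list at 5 of the 8 sites called at 1 h and at 5 of the 9 called at 18 h.

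The Ifi205 promoter had a peak in 1 of 6 lists at 0 h and in every LPS list. The peak at 0 h was that of WT replicate 1, at rank 22706, and in the whole lists 4 of 6 had one. At 1 h the ranks were 4927 and 9065 in WT and 11450, 12617 and 15934 in KO, and at 18 h they were 6964, 8853 and 6970 in WT and 11200, 5842 and 7295 in KO. No LPS list overlapped with the 0 h lists. The rank score was 1.36 higher at 1 h and 1.65 higher at 18 h.

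The Ifi211 promoter, which shares its ISRE stretch with Ifi204, was called at both times. Its ranks at 0 h were 12891, 10040 and 13879 in WT and 6679, 9359 and 11615 in KO. At 1 h they were 6044 and 4363 in WT and 5728, 1996 and 3513 in KO, and at 18 h 3184, 3058 and 3172 in WT and 1238, 2044 and 927 in KO. Every LPS rank was better than every 0 h rank. The rise was 1.32 ± 0.29 at 1 h (limma adjusted p = 0.00238; not called with all deposited intervals, 0.90, or with 50% cover, 0.14) and 2.36 ± 0.27 at 18 h (adjusted p = 1.07e-05), the largest at 18 h among the 23 sites.

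The Ifi203 promoter, which also lies at a start of Mndal, had a peak in 1 of 6 lists at 0 h and in all 11 LPS lists. In WT its ranks were 8877 and 9168 at 1 h and 14824, 15987 and 13394 at 18 h. In KO they were 18153, 17897 and 18390 at 1 h and 20729, 13577 and 20812 at 18 h. At 1 h the WT ranks were all better than the KO ranks. The rank score was 0.91 higher at 1 h and 0.56 higher at 18 h.

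The Mndal promoter inside the gene (chr1:173878885-173880900) had an AP-1 match and no ISRE match in the summit window. It had a peak in 1 of 6 lists at 0 h, in 5 of 5 at 1 h and in 4 of 6 at 18 h. The 1 h ranks were 18267 and 6820 in WT and 11604, 10546 and 7991 in KO. The rank score was 1.19 higher at 1 h, and 0.19 with the 10000 best peaks of each list. At 18 h the difference was 0.59, which did not pass.

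The promoters of Ifi207 and Ifi204 were open in every list at 0 h and were called at 18 h only. At Ifi207 the ranks at 0 h were 10613, 12026 and 8414 in WT and 8677, 14082 and 7150 in KO, and at 18 h 3764, 6802 and 5155 in WT and 5603, 3411 and 4337 in KO. Every 18 h rank was better than every 0 h rank. The rise was 1.07 ± 0.26 at Ifi207 (limma adjusted p = 0.00555) and 1.01 ± 0.28 at Ifi204 (adjusted p = 0.0124). Neither rise was called with all deposited intervals (0.73 and 0.68) or with 50% cover (0.57 and 1.69). At 1 h the differences were 0.26 ± 0.27 and 0.38 ± 0.29, and neither passed. Whether the responses at 1 h and 18 h differed was not tested.

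The promoters of Ifi209 and Ifi213 had a peak in the fewest lists. Within the compared length the Ifi209 promoter had one only in the 3 WT lists at 18 h, at ranks 16680, 20745 and 16259, and the mean difference at 18 h was 0.23. In the whole lists it also had peaks in the 3 WT lists at 0 h, at ranks 41305, 54369 and 45521, and in KO 1 h replicate 1, at rank 33603. The Ifi213 promoter had a peak only in replicates 1 and 2 of WT at 18 h, at ranks 24236 and 21452. In replicate 3 its peak had rank 24854, just past the compared length. The site 8659 bp upstream of Ifi209 had peaks in 3 WT and 2 KO lists at 18 h and in no other compared list, and its mean difference at 18 h was 0.45.

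Near Aim2 the LPS changes went both ways. The intronic site 6997 bp past a start (chr1:173426166-173428013) had a peak in all 6 lists at 0 h, at ranks from 9526 to 16538, in none of the 5 lists at 1 h and in 5 of 6 at 18 h. In the whole lists 4 of 5 lists at 1 h had it, at ranks from 24961 to 33807, and WT replicate 1-2 had none. The mean difference at 1 h was -0.82, the only called fall with LPS in the cluster, and it was not called with depth as a covariate (-0.70). The intronic site 9953 bp past the start, which holds an ISRE, had a peak in 1 of 6 lists at 0 h and 5 of 6 at 18 h, and its mean difference at 18 h was 0.53. At the Aim2 promoter the differences were -0.66 ± 0.26 at 1 h and 0.35 ± 0.25 at 18 h, and neither passed (limma adjusted p = 0.0714 and 0.346).

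Beyond Ifi205, a pair of sites at Olfr433 rose at 1 h. The promoter of Olfr433 (chr1:174040439-174041446) had ranks of 18583, 19336 and 20200 in WT and 21115, 13817 and 14627 in KO at 0 h. At 1 h the ranks were 10198 and 5601 in WT and 9428, 5639 and 5477 in KO. All 1 h ranks were better than the 0 h ranks, and the rise was 1.32 ± 0.22 (limma adjusted p = 0.000192). With all deposited intervals the rise was 0.90 and not called. The other site (chr1:174043406-174044108) had a peak within the compared length in 0 of 6 lists at 0 h, in all 5 at 1 h and in the 3 WT lists but no KO list at 18 h. In the whole lists 5 of 6 lists at 0 h had one, at ranks from 34927 to 53524, as did KO 18 h replicate 3 at rank 27443. The mean difference at 1 h was 1.03. Of the sites upstream of Ifi203, the nearer was 0.93 higher at 1 h (0.78 and not called with depth as a covariate). The farther was 0.69 higher at 18 h, but 0.26 with all deposited intervals and 0.35 with 50% cover, neither of them called. Both sites had peaks almost only in KO lists.

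All-or-none changes with LPS, again within the compared length, were few. The site 2662 bp past the start of Olfr433 was in every list at 1 h and none at 0 h, against 2.74% of all sites. The Aim2 intronic site was in every list at 0 h and none at 1 h, against 1.95%. At 18 h the cluster had no all-or-none gain or loss, against 1.76% and 1.96% of all sites.

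**Figure D5:**
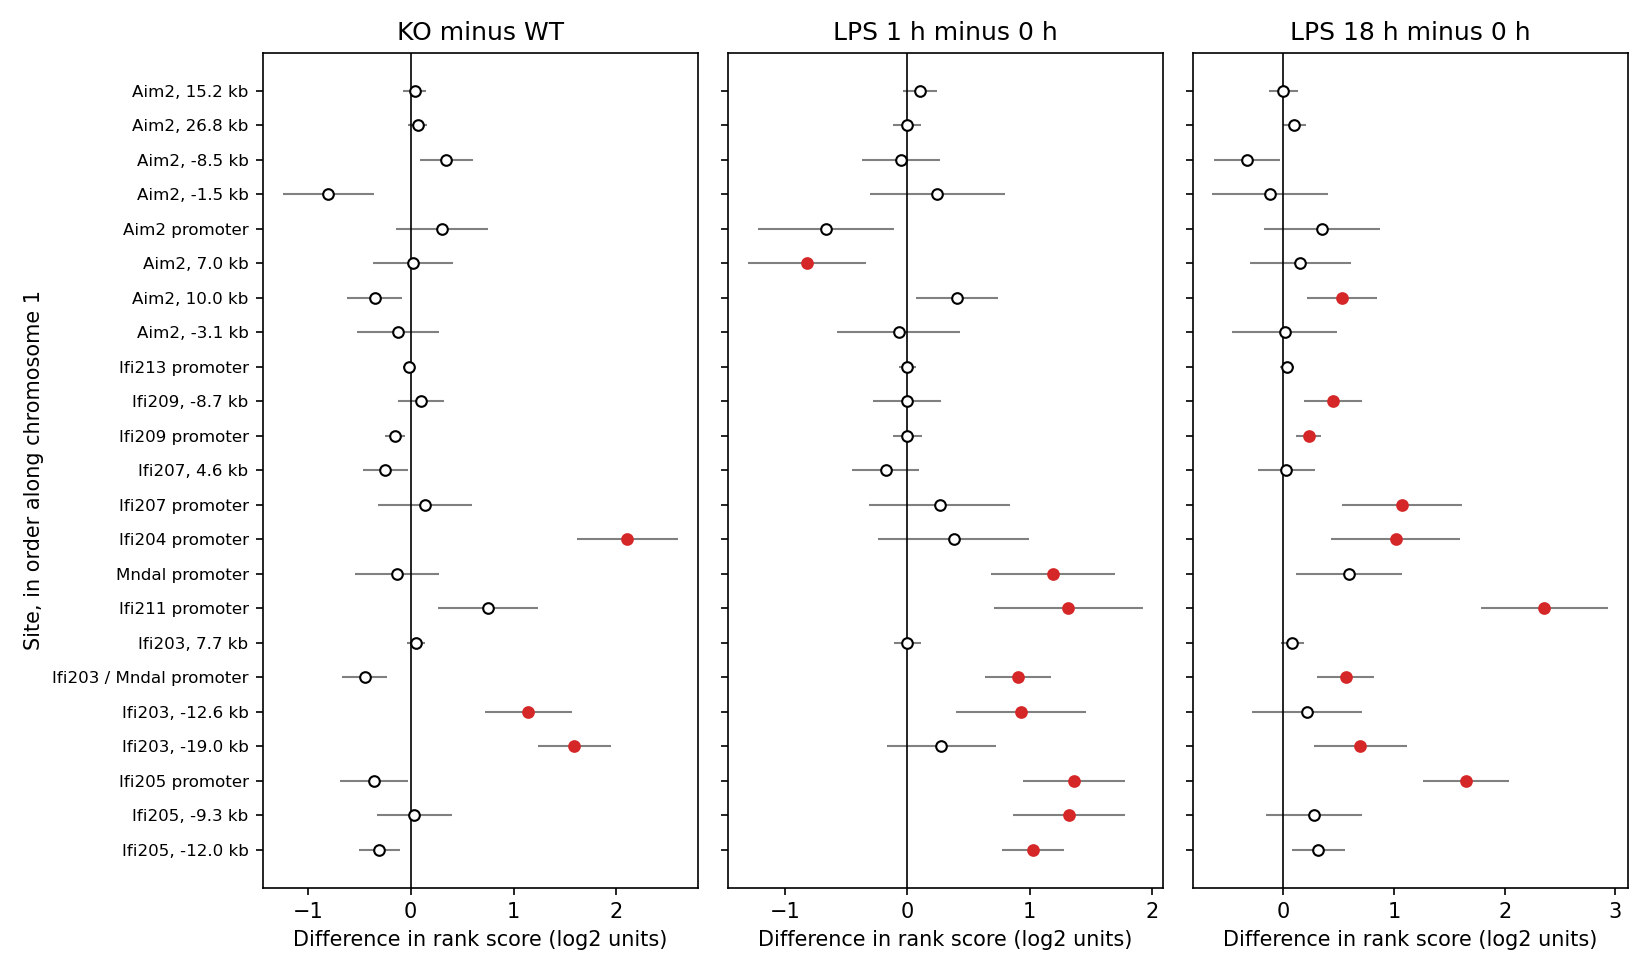
Difference in rank score (log2 units) at each of the 23 sites, with 95% intervals, for KO minus WT, LPS 1 h minus 0 h and LPS 18 h minus 0 h; filled red points are called (limma adjusted p under 0.05) and open points are not. The 3 genotype calls, the 7 rises and 1 fall at 1 h and the 9 rises at 18 h are spread along the cluster, with 10 of the 16 rises at member promoters. Where one side had a peak in at most 1 list, the point is a description, and its interval and colour test nothing.

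The ISRE was met at 7 of the 9 sites that rose at 18 h and at 1 of the 14 others. Over all sites it was met at 7.97% of the 3714 that rose at 18 h and 3.13% of the 30444 others. At 1 h it was met at 3 of the 7 sites that rose, against 5.50% of the 4727 sites that rose over the genome. AP-1 was met at 3 of the 7 sites that rose at 1 h and 1 of the 9 that rose at 18 h, against 37.6% and 26.8% of all sites that rose. These shares are descriptions of a cluster whose promoters share sequence.

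Whether the LPS response differed between KO and WT was asked with the difference of the differences. At 1 h, 0 of the 23 sites were called, against 0.102% of all sites, and 3 of the 23 and 2378 of all sites had an unadjusted p-value under 0.05 (limma). They were the nearer site upstream of Ifi203, where the rise was 1.84 in KO and 0.02 in WT, the Ifi203 promoter, where it was 0.43 and 1.39, and the Ifi205 promoter, where it was 0.89 and 1.83. At the first of these only 1 WT list had a peak, so its difference is a description. At 18 h, 0 of the 23 sites were called, against 0% of all sites, and 4 of the 23 and 2137 of all sites had an unadjusted p-value under 0.05. The 4 were the site 1512 bp upstream of Aim2, the Ifi209 promoter, the site beside Ifi202b and the site 2662 bp past the start of Olfr433. Apart from the site near Aim2, each had no peak in 1 genotype at 0 h and 18 h within the compared length. These differences are therefore descriptions. The smallest adjusted p-value in the cluster was 0.228 at 1 h (limma). At 18 h the smallest belonged to the Ifi209 promoter, whose peaks lay only in WT lists, and it is not given.

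Values near the limits of the selection were as follows. The site beside Ifi202b lay 18.4 kb from the Ifi203 gene body, just inside the limit of 20 kb. The nearest site outside lay 20.1 kb from Ifi205, had a peak in all 17 lists, and its differences were -0.26 between genotypes, 1.20 at 1 h and 0.37 at 18 h. The last ranks inside the compared length were 24352 at the Aim2 intronic site 9953 bp past the start in KO 1 h replicate 3 and 24236 at Ifi213. The next outside was 24557, at the site 8451 bp upstream of Aim2 in KO 1 h replicate 2.

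Among 15523 protein-coding genes outside the cluster, the summed rank score most like that of the cluster over the 17 lists was that of Cmklr1, a chemerin receptor (Pearson's r = 0.915). Cmpk2 and Rsad2, neighbouring interferon-induced genes that share the same 4 sites, followed with r = 0.910, then Gm28040 with 0.8999 and Aoah, an enzyme that degrades LPS, with 0.898. The lists share genotype, LPS time and depth, so these values describe the pattern only. The mean sum at Cmpk2 and Rsad2 was 2.36 in WT at 0 h, 6.88 at 1 h and 9.20 at 18 h, and in KO 2.11, 7.83 and 10.4. At 0 h the mean sum of the cluster was the higher in KO, much of it at the 3 sites called between genotypes. The sum at Cmpk2 and Rsad2 was instead lower in KO than in WT at 0 h, a difference that was not tested.

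Other genes of the pathway were read from fixed lists. Of 5 further family genes of the stretch, Ifi206, Ifi208, Ifi202b and Ifi203-ps had 9 sites, of which 5 are also sites of the cluster, and Ifi214 had none. Of the 9 sites, 3 were higher in KO, 2 rose at 1 h and 5 rose at 18 h, and none was lower in any of these comparisons. The 3 sites higher in KO are those of the cluster described above, counted again because they lie near these genes, and all sites give 0.132%, 13.8% and 10.9% for these calls. The 13 genes of the Aim2 inflammasome and of DNA sensing had 51 sites, of which 10 rose (19.6%) and 8 fell (15.7%) at 1 h and 6 rose (11.8%) and 4 fell (7.84%) at 18 h. Over all sites these shares were 13.8%, 14.2%, 10.9% and 12.7%. Of these genes, Il1b, which encodes the cytokine that the inflammasome matures, had 3 rises at 1 h among 5 sites, and Nlrp3, another inflammasome sensor, 3 rises and 1 fall among 6. Pycard, the adaptor of Aim2, had 1 fall at 18 h among 2 sites, and Casp1, the protease that it activates, had 0 calls among 2. The 11 genes of type I interferon signalling had 63 sites, of which 11 rose (17.5%) and 7 fell (11.1%) at 1 h and 15 rose (23.8%) and 4 fell (6.35%) at 18 h. Irf7 and Irf9, transcription factors of the interferon response, had 2 rises each at 18 h, among 2 and 3 sites. Neither list had a site called between KO and WT in the mean over times.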

How the data were processed

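ATAC-seq peak lists of 17 samples were used. The authors trimmed reads with cutadapt 2.6, processed them with the snakeATAC pipeline against mm10 and called peaks in each sample, and per the file headers the peak names state a mapping quality of at least 20, removal of mitochondrial and duplicate reads and a q-value threshold of 0.001. The deposited columns hold the −log10 p-value of each peak, which gave the ranks, and its fold enrichment, a ratio to the local background. The lists hold no counts per site, so the DiffBind 3.0.15 comparison of the study was not refitted. Depth was recovered from the deposited values as background reads per kb.

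Peaks were merged into sites, kept when seen in at least 2 lists, and scored by rank among 24389 peaks. All 17 lists in 6 groups entered 1 limma fit (limma 3.58.1, R 4.3.3), with Benjamini-Hochberg adjustment over 34158 sites. Only its comparison of KO with WT was tried on simulated scores, with differences placed at sites with higher mean scores. The other steps were not simulated. Over 35 pairs of lists with the same replicate number the correlation of deviations had a median of 0.0054, and 4 pairs exceeded 0.1, so numbers were not taken to pair samples. Genes came from GENCODE vM21 and promoters from RefSeq, and a promoter site has its summit within 1 kb of a start. Named sites were the promoters, the 12 called sites with the smallest p-values and the best site of each member, and other called sites were named after their values were seen. Members and gene lists were chosen with earlier results of these data known. Alternatives were shorter and whole lists, other site filters and overlaps, a 5 kb flank, tied ranks, depth, a replicate block, exact presence tests and leaving out each list.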

Additional observations from a re-analysis of the deposited data

How the results depend on the processing

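The reported counts of called sites were 3 (KO against WT), 8 (LPS 1 h) and 9 (LPS 18 h), and 3 sites were all-or-none. With the 10000 best peaks of each list they were 1, 2 and 4, with 0 all-or-none. With all deposited intervals LPS 1 h gave 4 calls and LPS 18 h gave 10, of which 3 were among the reported 9, and 0 sites were all-or-none; the 6 lost at 18 h included the promoters of Ifi204, Ifi207, Ifi203 and Ifi209. Where a peak had to cover at least 50% of the site, KO against WT gave 1 call, lower in KO and none of the reported 3, LPS 1 h gave 2, the difference of LPS responses at 18 h gave 2 in place of 0, and 1 site was all-or-none. Within 5 kb of the genes KO against WT gave 1, LPS 1 h gave 5 and 1 site was all-or-none. KO against WT gave 1 call at 0 h alone, and 4 at 1 h and 4 at 18 h, chosen after seeing the data. Exact permutation tests of presence called 0 of all sites in each comparison after adjustment, while 350, 3604 and 2911 sites had unadjusted p-values under 0.05. The smallest unadjusted p-values of these exact tests were 0.00025 (KO against WT), 0.005 (LPS 1 h) and 0.005 (LPS 18 h). The small groups set this floor, and after adjustment over all sites not even an all-or-none site passed. The 0 calls therefore cannot decide whether presence differed at a site. Leaving out 1 list gave 3 to 5, 8 to 10 and 9 to 11 calls. KO against WT gave 5 without WT 1 h replicate 3. The differences of responses gave 0 at 1 h and 0 to 1 at 18 h, the 1 without WT 18 h replicate 2. All-or-none sites numbered 3 to 6, with 6 without WT 0 h replicate 1.

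The mean number of peaks per list differed by 0.556 between KO and WT, by 3.67 at 1 h and by 6.17 at 18 h. With all deposited intervals these were -8.17, -3.58 and 9.83, and with the 10000 best 3 at 18 h. Within 5 kb of the genes, at equal list length, the difference between KO and WT was -0.833, so its sign was not stable there either.

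In the replicate block, replicate 1-2 of WT at 1 h formed a level of its own, so that group rested on replicate 3 alone. LPS 18 h gave 11 calls with the block. The site 12607 bp upstream of Ifi203 was then not called between KO and WT (1.10), nor was the fall near Aim2 at 1 h (-0.81). At single times the genotype calls at 1 h, where WT rested on 1 list, were lost with the block. The differences there were -1.01 at the Ifi203 promoter, 1.85 at Ifi204, and 2.07 and 1.36 at the nearer and farther sites upstream of Ifi203. The call of Ifi204 at 0 h was also lost (limma adjusted p = 0.0709). The 4 calls at 18 h held, but at the Ifi209 promoter and the site beside Ifi202b only 1 genotype had a peak at 18 h. In the mean over times the Ifi204 promoter lost its genotype call only with the 50% cover (0.87, adjusted p = 0.62). That of the site beside Ifi202b, a description because no WT list had a peak, was lost with the 10000 best (0.46) and the 50% cover (0.95). At 1 h the calls at Mndal and Ifi203 were lost with the 10000 best, all intervals and the 50% cover, those at Ifi205 with the first and last, and those at Ifi211 with all intervals and the 50% cover. At 18 h Ifi203 and Ifi205 were lost with the 10000 best, and Ifi207 and Ifi204 with the 50% cover. Among the alternatives for named sites none reversed a called direction. Ranks hold no absolute signal, and a score of 0 covers both a weak peak past the compared length and no peak.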
